A study of Mus musculus with 6 samples.

Results

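Reg1, Reg3a, Reg3b, Reg3g and Reg4, secreted lectins of the Reg family, the serum amyloid A genes Saa1 and Saa2, and Retnlb, which encodes the goblet cell peptide RELM-beta, were followed in the intestine of mice on a high-fat diet. These 8 genes, of 47643 in the table, were taken by symbol (GENCODE M21), and they were chosen with the difference between the same 6 libraries already known. Their levels are therefore given as a description with no test. The tested animals carried the genotype MycΔIE, ERT2, in which Myc is deleted from epithelial cells of the intestine (Myc-deleted, 3 libraries), and their controls carried Mycfl/fl, the floxed gene (control, 3 libraries). All were male C57BL/6 mice of 7 to 8 weeks that had been injected with tamoxifen and fed a diet of 60% fat for 2 weeks. The labels do not name the promoter that drives the recombinase, do not say whether the controls carry one, and do not say whether a library is 1 animal, so the p-values measure the spread between these libraries. If the controls lack the recombinase, its own effect and that of losing Myc cannot be told apart.

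The libraries held 9956938 to 11328693 expected counts, and 3 counts corresponded to 0.265 to 0.301 counts per 1000000 before scaling. CPM values are counts per 1000000, scaled between libraries by TMM. Myc itself was at 3.29, 4.36 and 5.81 CPM in Myc-deleted libraries 1 to 3, against 5.86, 6.05 and 6.03 CPM in control libraries 1 to 3. Its difference did not pass the test (edgeR adjusted p = 0.318), and Myc-deleted library 3 lay close to the controls. The labels name the intestine and the extraction protocol names liver. The ileal genes Fabp6 and Slc10a2 were at 10559 and 1141 CPM on average in the Myc-deleted mice, against 11004 and 1021 CPM in the controls. The third ileal gene, Fgf15, which bile acids induce, was at 306, 588 and 464 CPM in Myc-deleted libraries 1 to 3, against 143, 76.5 and 133 CPM in control libraries 1 to 3, and rose (log2 fold change 1.95 ± 0.26 SE, edgeR adjusted p = 0.00236). The 6 colonic genes summed to 182 to 218 CPM in the Myc-deleted mice, against 321 to 376 CPM in the controls. Car4 fell (80.6 ± 17.9 CPM in the Myc-deleted mice and 214 ± 20.7 CPM in the controls, SD, n = 3 each; edgeR adjusted p = 0.000850), and the other 5 summed to 115 to 141 CPM in the Myc-deleted mice, against 132 to 151 CPM in the controls. Car1 was higher without overlap, with 9, 21 and 30 counts in Myc-deleted libraries 1 to 3, against 0, 5 and 2 in control libraries 1 to 3, and Aqp8 and Prdx6b were at 0. These genes were named after their values were seen, and the part of any difference in segment in the results was not tested.

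Reg3 lectins are small C-type lectins that enterocytes and Paneth cells release into the mucus. Reg3g binds the peptidoglycan of Gram-positive bacteria and Reg3b acts on Gram-negative bacteria, and both hold microbes away from the epithelium. Their genes and those of serum amyloid A are induced in the ileum by the microbiota, through interleukin 22 from innate lymphoid cells, its receptor Il22ra1 with Il10rb, and the transcription factor Stat3. Serum amyloid A is an acute phase apolipoprotein of HDL, made by hepatocytes and by the ileal epithelium, that also carries retinol. Retnlb is known for its induction by the type 2 cytokine interleukin 13.

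The sequences directly before the starts of Reg3b and Reg3g are shown first because this pair holds nearly all counts of the 8 genes. Each line gives the 250 bases before the RefSeq start (GRCm38.p6), 5′ to 3′ on the strand of the gene, for Reg3b at chr6:78370635-78370884 (plus strand) and for Reg3g at chr6:78468875-78469124 (minus strand). Capitals mark the longest run of identical bases that both share, 20 bases that reach the end of the window. The GENCODE gene of Reg3b begins further upstream, at 78370657, inside this window.
Reg3b: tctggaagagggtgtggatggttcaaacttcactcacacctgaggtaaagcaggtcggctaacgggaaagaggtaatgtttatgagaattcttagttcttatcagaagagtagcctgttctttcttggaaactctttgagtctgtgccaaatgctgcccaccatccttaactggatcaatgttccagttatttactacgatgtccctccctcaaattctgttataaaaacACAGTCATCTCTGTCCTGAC
Reg3g: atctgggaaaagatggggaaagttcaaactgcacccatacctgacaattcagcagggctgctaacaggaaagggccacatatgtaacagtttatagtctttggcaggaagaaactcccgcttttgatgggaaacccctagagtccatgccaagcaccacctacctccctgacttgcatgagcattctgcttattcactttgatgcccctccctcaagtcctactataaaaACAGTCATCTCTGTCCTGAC
The windows of Reg3b and Reg3g were 70.0% identical over 247 aligned bases, and Reg3g and Reg3a were 69.8% identical over 199. Both windows above hold TATAAA on the strand of the gene, as does that of Reg1, and 7.59% of 32851 promoter windows of this length do. The STAT consensus TTCNNNGAA, searched on both strands, was found at 129 to 121 bases before the start of Reg3b and in no other of the 7 members with a RefSeq window (background 7.02%). The E-box CACGTG, which Myc with Max binds, was in none of the 7 windows (background 6.02%). A match is a run of letters and not a measured binding site, and the absence of one says nothing about a factor outside these bases.

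In the Myc-deleted mice the 3 Reg3 lectins and Saa1 were lower and Reg4 was higher. Saa2 also had fewer counts, but it did not pass the filter, and how many of its counts are reads of Saa1 was not tested. Of the 8 genes, 5 passed the filter on low counts, and 4 of these were past the threshold in the lower direction, where 3.73% of 12720 tested genes were called lower. The fifth, Reg4, was past it in the higher direction, where 4.22% of all tested genes were called higher. All 5 tested genes (Reg3a, Reg3b, Reg3g, Reg4 and Saa1) had groups that did not overlap, as had 27.8% of all tested genes. These were 14.0% with the Myc-deleted libraries higher and 13.7% with them lower. The groups of Saa2, which was not tested, did not overlap either. Since the genes were chosen on this contrast, nothing is read from these counts. The median log2 fold change of the 5 tested genes was -1.70, against -0.00212 over all tested genes. In RNA of intestine, which holds several cell types, fewer cells of a type and less RNA per cell cannot be told apart.

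**Figure D1:**
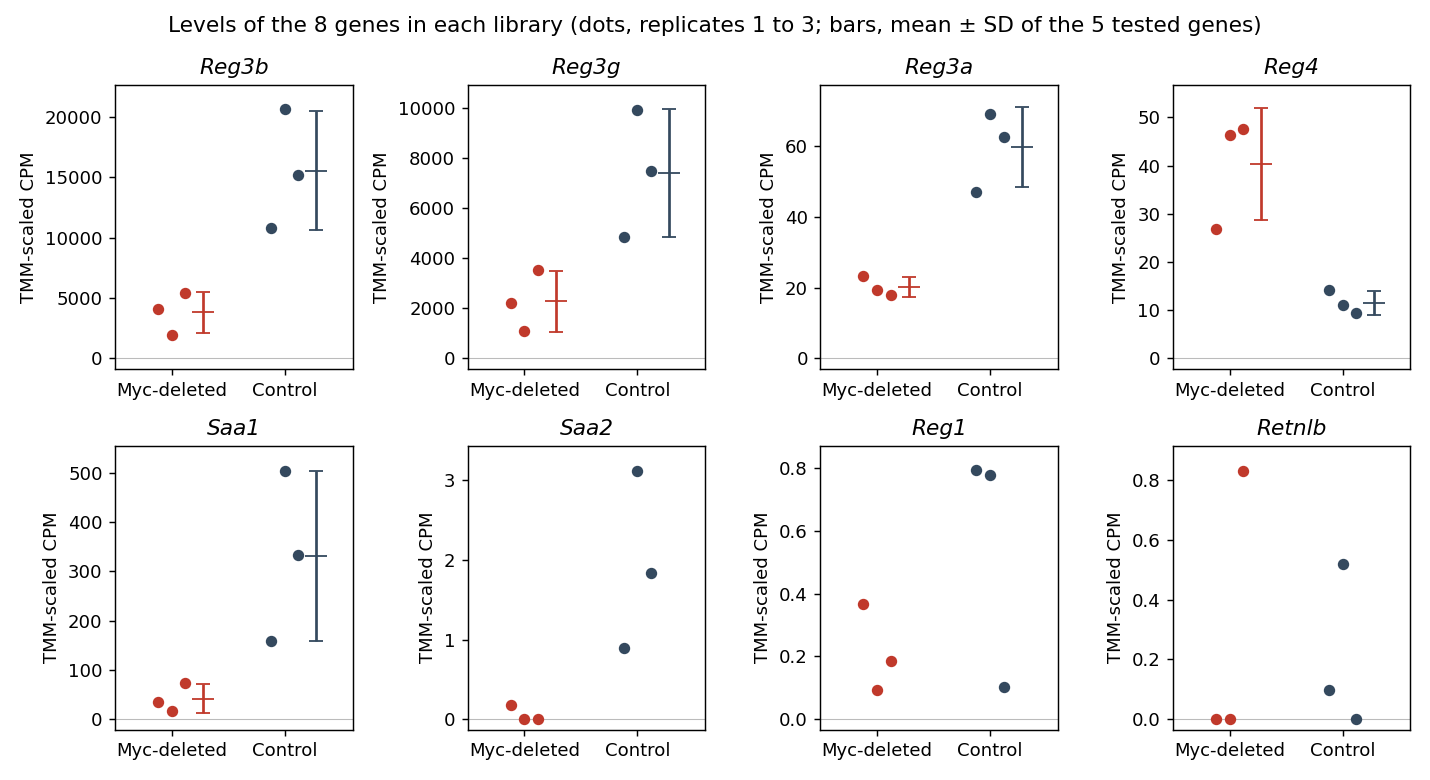
TMM-scaled CPM (vertical axes, linear and different in each panel) of the 8 genes in the Myc-deleted libraries (left, red) and the control libraries (right, dark), 1 dot per library, with the mean and SD (n = 3) beside the dots for the 5 genes that passed the filter. Reg3b, Reg3g, Reg3a and Saa1 are lower and Reg4 is higher in every Myc-deleted library than in any control, while Reg1 and Retnlb stay below 1 CPM and overlap.

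Reg3b (ENSMUSG00000071356.7, chromosome 6, 78370657 to 78373466, GRCm38) had 44597, 21282 and 58481 expected counts in Myc-deleted libraries 1 to 3, against 108670, 238765 and 148712 in control libraries 1 to 3. After scaling these were 4080, 1976 and 5396 CPM in the Myc-deleted libraries, against 10800, 20640 and 15191 CPM in the controls. The highest Myc-deleted library thus lay below the lowest control, and each group was itself broad, with its highest library 2.73 times its lowest in the Myc-deleted mice and 1.91 times in the controls. The means were 3817 ± 1725 CPM in the Myc-deleted mice and 15544 ± 4930 CPM in the controls (SD, n = 3 each), a log2 fold change of -2.03 ± 0.34 (SE). Reg3b ranked 23, 55 and 12 among all genes by count in Myc-deleted libraries 1 to 3, against 4, 1 and 3 in control libraries 1 to 3.

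Reg3g (ENSMUSG00000030017.2, chromosome 6, 78466269 to 78468872), the Gram-positive binding lectin, was at 2201, 1111 and 3557 CPM in Myc-deleted libraries 1 to 3, against 4838, 9942 and 7479 CPM in control libraries 1 to 3. Myc-deleted library 2 was again the lowest and control library 2 again the highest, and the groups did not overlap. The means were 2290 ± 1226 CPM in the Myc-deleted mice and 7420 ± 2552 CPM in the controls (SD, n = 3 each), with a log2 fold change of -1.70 ± 0.38 (SE). Of the 5 tested genes Reg3g alone lost its call when a library was left out, without Myc-deleted library 1, control library 2 or control library 3. Since the genes were chosen on this contrast, a kept call is no support for the others. The log2 fold change of Reg3g over all runs that left out a library was -2.17 to -1.37.

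Reg3a (ENSMUSG00000079516.2, chromosome 6, 78380709 to 78383827), the third Reg3 lectin followed here, was far less abundant and more even. It was at 23.4, 19.2 and 17.9 CPM in Myc-deleted libraries 1 to 3, against 47.1, 69.1 and 62.6 CPM in control libraries 1 to 3. Its highest library was 1.31 times its lowest in the Myc-deleted mice and 1.47 times in the controls. The log2 fold change was -1.56 ± 0.15 (SE), the smallest SE of the 5. Among the Myc-deleted libraries its order differed from that of Reg3b and Reg3g: library 3, the highest for that pair, was the lowest for Reg3a.

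Reg4 (ENSMUSG00000027876.4, chromosome 3, 98222156 to 98236748), a Reg lectin that secretory cells of the crypt make and the only member of the family outside the chromosome 6 cluster, went the other way. It was at 26.9, 46.4 and 47.5 CPM in Myc-deleted libraries 1 to 3, against 14.2, 11.1 and 9.40 CPM in control libraries 1 to 3. Every Myc-deleted library was above every control, and the means were 40.3 ± 11.6 and 11.6 ± 2.44 CPM in the Myc-deleted and control mice (SD, n = 3 each). The log2 fold change was 1.80 ± 0.23 (SE). Markers of goblet cells, which can express Reg4, summed to 20640 to 21850 CPM over 7 genes in the Myc-deleted mice, against 21482 to 22019 CPM in the controls. Named after their values were seen, 3 of them had groups that did not overlap, and none of the 3 passed by edgeR. Spink4 averaged 379 ± 54.5 CPM in the Myc-deleted mice and 272 ± 43.2 CPM in the controls (SD, n = 3 each; log2 fold change 0.48 ± 0.13 SE, edgeR adjusted p = 0.0564). Muc2 was also higher (0.19 ± 0.10, adjusted p = 0.307 by edgeR) and Fcgbp lower (-0.24 ± 0.11, adjusted p = 0.248 by edgeR). The part of these cells in the level of Reg4 was not tested, and no markers of enteroendocrine cells, another secretory type, were read.

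Reg1 (ENSMUSG00000059654.7, chromosome 6, 78422711 to 78428667), known as the pancreatic stone protein, was near the limit of detection and was not tested. It had 4, 1 and 2 counts in Myc-deleted libraries 1 to 3, against 8, 9 and 1 in control libraries 1 to 3, so the groups overlapped. Over the pooled counts of 7 and 18 the ratio of Myc-deleted to control was 0.376, with an exact 95% interval of 0.133 to 0.942 that covers counting error only. The 8 genes of pancreatic acinar cells, which make Reg1, summed to 6.77 to 7.99 CPM in the Myc-deleted mice, against 3.47 to 3.89 CPM in the controls. Nearly all of this was Cela1, named after its values were seen (7.29 ± 0.607 CPM in the Myc-deleted mice and 3.40 ± 0.108 CPM in the controls, SD, n = 3 each), which rose (edgeR adjusted p = 0.00550). The other 7 summed to 0 to 0.0929 CPM in the Myc-deleted mice, against 0 to 0.432 CPM in the controls, and Cela2a, Cpa1, Pnlip and Prss2 were at 0 in all libraries.

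Saa1 (ENSMUSG00000074115.4, chromosome 7, 46740497 to 46742980) differed most among the 5 tested members. It had 381, 170 and 799 counts in Myc-deleted libraries 1 to 3, against 1595, 5819 and 3261 in control libraries 1 to 3. Scaled, these were 34.9, 15.8 and 73.7 CPM in the Myc-deleted libraries and 159, 503 and 333 CPM in the controls, and the groups did not overlap. It was also the broadest of the 5 within groups, with the highest library 4.67 times the lowest in the Myc-deleted mice and 3.17 times in the controls. The log2 fold change was -3.00 ± 0.52 (SE), and -3.71 without Myc-deleted library 3.

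Saa2 (ENSMUSG00000057465.4, chromosome 7, 46751790 to 46754313), which stands head to head with Saa1, did not pass the filter. It had 2, 0 and 0 counts in Myc-deleted libraries 1 to 3, against 9.01, 36.0 and 18.0 in control libraries 1 to 3. The pooled counts of 2 and 63 gave a ratio of Myc-deleted to control of 0.0307, with an exact 95% interval of 0.00363 to 0.115 for counting error. The coding transcripts of Saa1 and Saa2 were 94.4% identical over 606 aligned bases, with a longest identical run of 76 bases. Per 1000 counts of Saa1, Saa2 had 5.25, 0 and 0 counts in Myc-deleted libraries 1 to 3, against 5.65, 6.19 and 5.53 in control libraries 1 to 3. How many Saa2 counts are reads of Saa1 was not tested, and the Saa2 values are uncertain for that reason.

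The upstream windows of Saa1 and Saa2 are shown because this near-copy extends to the promoters while the levels of the 2 genes differ widely. They lie at chr7:46742981-46743230 (minus strand) and chr7:46751583-46751832 (plus strand) in GRCm38.p6 (RefSeq). The GENCODE gene of Saa2 begins further upstream, at 46751790, inside its window. Capitals mark matches to the C/EBP pattern TTGCNNAA on either strand and to the NF-kappaB consensus decamer on either strand.
Saa1: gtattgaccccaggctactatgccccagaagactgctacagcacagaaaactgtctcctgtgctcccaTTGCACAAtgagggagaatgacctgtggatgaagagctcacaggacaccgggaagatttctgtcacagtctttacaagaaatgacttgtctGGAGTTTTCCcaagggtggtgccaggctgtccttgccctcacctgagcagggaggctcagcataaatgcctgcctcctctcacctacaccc
Saa2: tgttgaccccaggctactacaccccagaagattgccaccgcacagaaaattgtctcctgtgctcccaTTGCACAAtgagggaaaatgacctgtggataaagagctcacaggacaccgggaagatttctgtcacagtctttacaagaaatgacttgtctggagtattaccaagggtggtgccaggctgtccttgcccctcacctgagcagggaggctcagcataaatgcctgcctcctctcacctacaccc
These windows were 95.6% identical over 249 aligned bases. The C/EBP pattern was in both, at 182 to 175 bases before the start of Saa1 and 183 to 176 before that of Saa2, and a match was also in the window of Reg3a (9.56% of all windows). The NF-kappaB consensus was in the window of Saa1 at 91 to 82 bases before its start and in that of Reg3g at 123 to 114, and not in that of Saa2 (9.55% of all windows). The matches do not overlap each other. These motifs were chosen with the member sequences in view.

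Hepatocytes secrete serum amyloid A, so their markers were read beside it. The 7 hepatocyte genes summed to 3.34 to 4.94 CPM in the Myc-deleted mice, against 5.27 to 6.44 CPM in the controls, while Saa1 held 15.8 to 73.7 CPM in the Myc-deleted mice, against 159 to 503 CPM in the controls. Alb, the albumin gene, named after its values were seen, was at 0.915, 0.0929 and 0.738 CPM in Myc-deleted libraries 1 to 3 and 1.89, 3.20 and 2.76 CPM in control libraries 1 to 3. It fell (log2 fold change -2.15 ± 0.52 SE, edgeR adjusted p = 0.0326). Without Alb the other 6 genes summed to 3.25 to 4.03 CPM in the Myc-deleted mice, against 2.94 to 3.68 CPM in the controls, and the other 2 tested, Ttr (0.30 ± 0.29 log2 SE, adjusted p = 0.603) and Apoh (0.25 ± 0.49, adjusted p = 0.814), did not pass by edgeR. The part of hepatocyte RNA in the level of Saa1 was not tested.

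Retnlb (ENSMUSG00000022650.6, chromosome 16, 48816856 to 48818892) was nearly silent. It had 0, 0 and 9 counts in Myc-deleted libraries 1 to 3, against 1, 6 and 0 in control libraries 1 to 3. The groups overlapped, all 9 Myc-deleted counts came from 1 library, and a difference was not detectable at this depth (ratio of pooled counts 1.24, exact 95% interval 0.411 to 3.92).

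Reg3b and Reg3g set the weight of the group in the libraries. All 8 genes together took 0.624%, 0.321% and 0.905% of the expected counts of Myc-deleted libraries 1 to 3, against 1.58%, 3.18% and 2.27% in control libraries 1 to 3. Reg3b alone averaged 0.379 ± 0.169% in the Myc-deleted mice and 1.56 ± 0.518% in the controls (SD, n = 3 each), and Reg3g averaged 0.227 ± 0.121% and 0.745 ± 0.266%. Leaving the 8 genes out of the library sizes and scaling factors, an alternative added after the data were seen, gave log2 fold changes of -2.03 for Reg3b, -3.00 for Saa1 and 1.80 for Reg4.

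**Figure D2:**
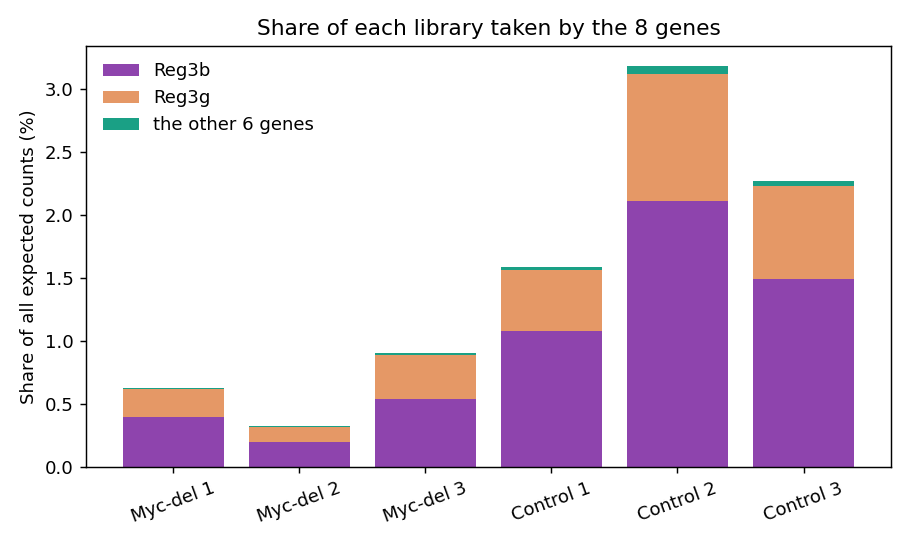
Share of all expected counts (percent, vertical axis from 0) taken by Reg3b, Reg3g and the other 6 genes in each Myc-deleted library (left) and control library (right). The stacks reach 0.321% to 0.905% in the Myc-deleted libraries and 1.58% to 3.18% in the controls, and the other 6 genes are a thin cap.

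Levels were compared between genes as CPM per kilobase of the principal coding transcript. In the Myc-deleted mice the mean levels ran from Reg3b (4875 CPM per kilobase) over Reg3g (2970), Saa1 (68.1), Reg4 (39.5) and Reg3a (24.5) to Retnlb (0.398), Reg1 (0.237) and Saa2 (0.0936). In the controls the order was Reg3b (19851), Reg3g (9624), Saa1 (544), Reg3a (72.2), Reg4 (11.3), Saa2 (2.99), Reg1 (0.618) and Retnlb (0.296). In the controls every gene down to Reg1 was separated from its neighbours, with no overlap of the 3 libraries, and only Reg1 and Retnlb overlapped. In the Myc-deleted mice the ranges of Reg3b and Reg3g overlapped, those of Saa1, Reg4 and Reg3a overlapped, and so did those of the 3 lowest genes. Reg4 thus stood above Reg3a on average in the Myc-deleted mice and below it in every control. With all annotated exons as the length, Saa1 in the Myc-deleted mice (16.7 CPM per kilobase) stood below Reg4 and Reg3a, and the order in the controls was the same.

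The proportions between the members within a library are given as a description. Since the members were chosen on this contrast, nothing is read from whether these ratios separate the groups. Reg3b counts were 1.85, 1.78 and 1.52 times Reg3g counts in Myc-deleted libraries 1 to 3, against 2.23, 2.08 and 2.03 times in control libraries 1 to 3. The groups did not overlap, although the coding transcripts of the pair are 74.7% identical and share no identical run longer than 35 bases. Per 1000 counts of Reg3b, Saa1 had 8.54, 7.99 and 13.7 counts in Myc-deleted libraries 1 to 3, against 14.7, 24.4 and 21.9 in control libraries 1 to 3, again without overlap. Reg3a kept no such separation, with 5.74, 9.73 and 3.32 counts per 1000 of Reg3b in the Myc-deleted libraries and 4.36, 3.35 and 4.12 in the controls. Reg4 had 6.59, 23.5 and 8.81 counts per 1000 of Reg3b in Myc-deleted libraries 1 to 3, against 1.32, 0.536 and 0.619 in the controls.

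**Figure D3:**
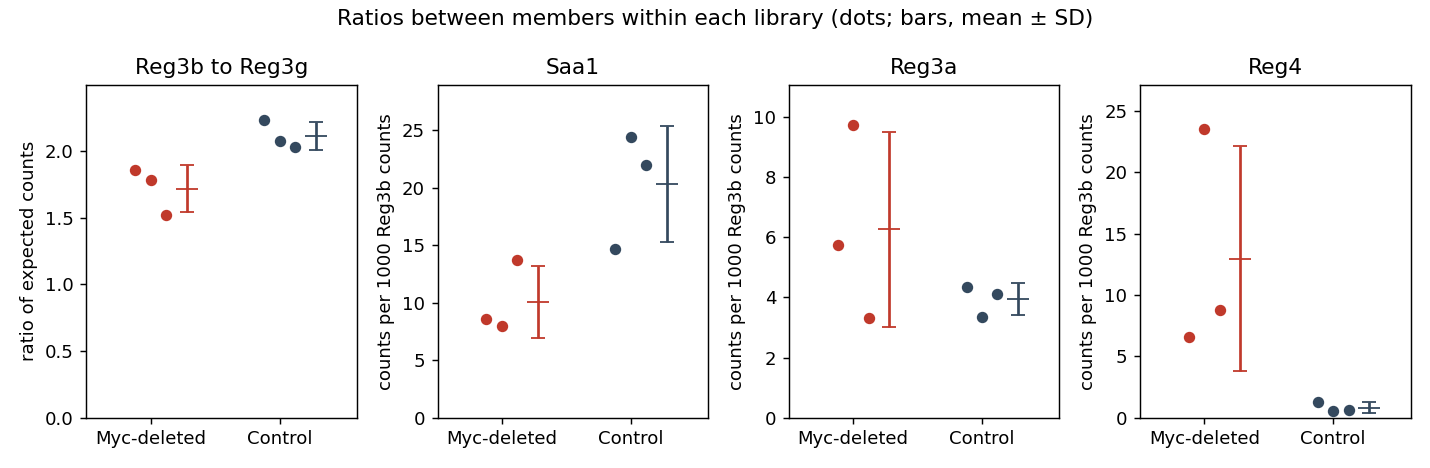
Ratios of expected counts within each library (vertical axes from 0, 1 dot per library, bars mean and SD, n = 3) for Reg3b to Reg3g and for Saa1, Reg3a and Reg4 per 1000 Reg3b counts, Myc-deleted left and control right. Reg3b to Reg3g is 1.52 to 1.85 in the Myc-deleted libraries and 2.03 to 2.23 in the controls, and only the Reg3a panel shows overlapping groups.

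Within each group, Reg3b, Reg3g and Saa1 ranked the libraries alike. Myc-deleted library 2 was the lowest and library 3 the highest for all 3 genes, and control library 1 was the lowest and library 2 the highest. Reg3a followed them in the controls and not in the Myc-deleted mice. With 3 libraries a group, this order is a description.

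**Figure D4:**
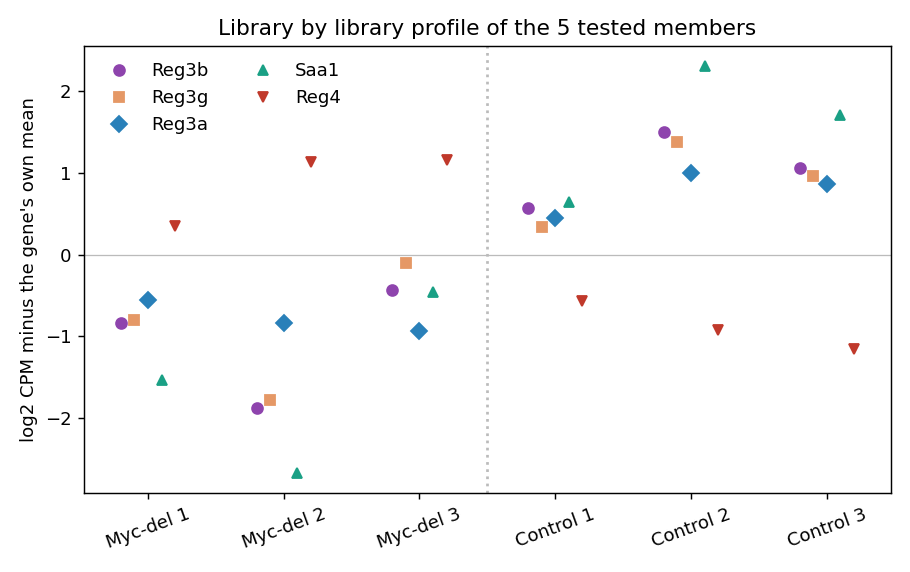
Log2 CPM of the 5 tested genes in each library minus the gene's own mean over the 6 libraries (vertical axis), with Myc-deleted libraries left and control libraries right of the dotted line. Reg3b, Reg3g and Saa1 are lowest in Myc-deleted library 2 and highest in control library 2, and Reg4 lies on the other side of 0 from them in every library.

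Outside the 8 genes, the genes most like Reg3b were sought among 11216 tested genes (those whose log2 CPM averaged 1 or more), by the root mean square difference between profiles over the 6 libraries, each centred on its own mean. The members themselves were left out of this search. Among them Reg3g lay 0.181 log2 units from Reg3b, Reg3a 0.538, Saa1 0.604 and Reg4 2.04. The nearest outside genes were Tat, tyrosine aminotransferase (0.374 log2 units), and Dio1, a thyroid hormone deiodinase (0.451). Rdh16, a retinol dehydrogenase (0.454), and Lbp, the lipopolysaccharide binding protein (0.462), followed. All of these outside genes lay closer to Reg3b than Reg3a, Saa1 and Reg4 did. Tat was at 14.3, 4.83 and 16.0 CPM in Myc-deleted libraries 1 to 3, against 24.2, 31.6 and 40.7 CPM in control libraries 1 to 3, with the same lowest library as Reg3b. Lbp was at 2.93, 1.21 and 4.24 CPM in the Myc-deleted libraries and 5.66, 6.40 and 10.5 CPM in the controls, and ranked the Myc-deleted libraries as Reg3b does. In the controls the order differed, with library 3 the highest for Tat and Lbp and library 2 the highest for Reg3b. Reg3b lay 0.604, Reg3g 0.704, Reg3a 1.08 and Reg4 2.60 log2 units from Saa1. Outside the 8 genes the nearest to Saa1 were B3galt5, a galactosyltransferase (0.656), and Slc40a1, the iron exporter ferroportin (0.776). Mal, a membrane proteolipid (0.790), and Gsdmc2, a gasdermin (0.812), followed, and all of these lay closer to Saa1 than Reg3a and Reg4 did. B3galt5 was at 2.93, 1.49 and 4.43 CPM in Myc-deleted libraries 1 to 3, against 3.98, 24.1 and 15.6 CPM in control libraries 1 to 3, so its groups overlapped where those of Saa1 did not. Likeness to a gene chosen on this contrast is no test of a difference.

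The neighbours of these genes were read next. The Reg cluster on chromosome 6 holds, in order, Reg3b, Reg3d, Reg3a, Reg2, Reg1 and Reg3g, with the start coordinate of Reg3g 95.6 kb from that of Reg3b. Reg2 was at 0 in all libraries, and Reg3d had 4, 0 and 2 counts in Myc-deleted libraries 1 to 3, against 3, 5 and 3 in control libraries 1 to 3, and these groups overlapped. Beside Saa1 on chromosome 7, Saa3, which macrophages and epithelium make, was at 2.74, 1.21 and 1.57 CPM in Myc-deleted libraries 1 to 3, against 2.39, 2.59 and 2.66 CPM in the controls, and did not pass (log2 fold change -0.46 ± 0.33 SE, edgeR adjusted p = 0.465). Saa4 had 1 count in Myc-deleted library 1 and 1 in control library 1. The flanking genes, named by position after their values were seen, did not pass either: Hps5 gave a log2 fold change of -0.25 ± 0.12 SE (edgeR adjusted p = 0.246) and Saal1 one of -0.09 ± 0.28 SE (adjusted p = 0.895).

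The other genes of the pathway were read from 12 lists of 127 genes, of which 84 were tested, 5 rose and 2 fell, 8.33% of those tested against 7.95% of all tested genes. Their median log2 fold change was 0.0573. The lists were written with earlier results of these data known.

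**Figure D5:**
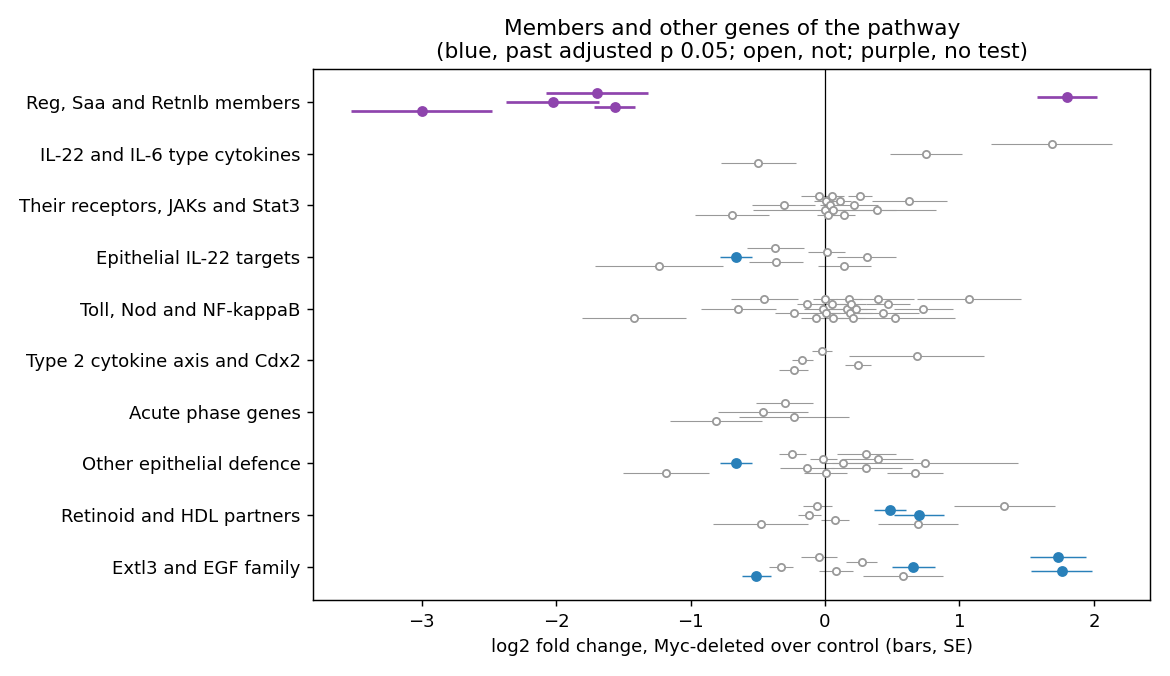
Log2 fold change of Myc-deleted over control (horizontal axis, bars SE) for the 5 tested members (purple, described without a test) and for tested genes of the other pathway lists, filled blue where past an adjusted p of 0.05 and open where not. The members lie between -3.00 and -1.56 or at 1.80, and none of the 15 receptor, kinase and Stat3 points is filled.

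Most of the cytokine genes read beside the Reg3 lectins had few or no transcripts. Il22, named after its values were seen, had 0 counts in all 3 Myc-deleted libraries, against 8, 5 and 1 in control libraries 1 to 3. Set at a limit of 3 counts over the Myc-deleted group, it was 4.83-fold lower than the 14 pooled control counts after scaling. This figure takes no error on the control counts and is not a lower bound, and Il22 was too low to be tested. Il6, Il12b and Il17f had no counts in any library. Of the 12 cytokine genes 3 were tested (Lif, Il18 and Tnf) and edgeR called 0, with 2 higher at an unadjusted p below 0.05 and 0 called by DESeq2. Tnf, also named after its values were seen, was at 1.10, 1.02 and 1.66 CPM in Myc-deleted libraries 1 to 3, against 0.398, 0.259 and 0.511 CPM in the controls (log2 fold change 1.69 ± 0.45 SE, edgeR adjusted p = 0.0506). Lif (0.75 ± 0.27, edgeR adjusted p = 0.125) and Il18 (-0.50 ± 0.28, adjusted p = 0.336), named in the same way, did not pass, and their groups overlapped.

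All 15 genes of the interleukin 22 and interleukin 6 receptors, JAK kinases and Stat3 were tested, and edgeR called 0. At an unadjusted p below 0.05, 2 were higher and 1 lower, and DESeq2 called 0. The receptor subunit gene Il22ra1 was at 100, 96.7 and 83.6 CPM in Myc-deleted libraries 1 to 3, against 81.5, 77.5 and 75.0 CPM in control libraries 1 to 3. Its log2 fold change was 0.26 ± 0.09 (SE, edgeR adjusted p = 0.108), and without Myc-deleted library 3 it passed (adjusted p = 0.0497). Stat3 averaged 188 ± 13.6 CPM in the Myc-deleted mice and 181 ± 16.5 CPM in the controls (SD, n = 3 each; edgeR adjusted p = 0.765). Il6st, the shared gp130 receptor subunit (-0.05 ± 0.13 log2 SE, adjusted p = 0.876), and Socs3, the feedback inhibitor that Stat3 induces (-0.31 ± 0.23, adjusted p = 0.494), did not pass by edgeR. Socs3 was at 57.0, 56.4 and 61.3 CPM in Myc-deleted libraries 1 to 3, against 51.4, 56.9 and 108 CPM in the controls, and control library 3 decided its sign (0.10 when left out).

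Of 12 other epithelial targets of interleukin 22, 7 were tested and 1 fell. Pigr, the receptor that carries immunoglobulin A into the lumen, was at 2193, 1710 and 2141 CPM in Myc-deleted libraries 1 to 3, against 2929, 3168 and 3480 CPM in control libraries 1 to 3 (log2 fold change -0.66 ± 0.12 SE, edgeR adjusted p = 0.00915). Fut2, the fucosyltransferase of the mucosal surface, was at 3.48, 2.97 and 7.47 CPM in the Myc-deleted libraries and 3.98, 16.0 and 12.7 CPM in the controls, overlapping at control library 1. It did not pass (-1.24 ± 0.47 log2 SE, edgeR adjusted p = 0.157), but did so without control library 1 (adjusted p = 0.0276) and when no low-count filter was applied (0.0256). The epithelial oxidase gene Duox2 (0.15 ± 0.20, adjusted p = 0.722, and -0.04 without Myc-deleted library 3) and the nitric oxide synthase gene Nos2 (-0.37 ± 0.20, adjusted p = 0.332, and -0.13 without control library 3) did not pass by edgeR. Lcn2, the siderophore trap lipocalin 2, had 0, 1 and 5 counts in Myc-deleted libraries 1 to 3, against 1, 5 and 4 in the controls.

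Of 26 genes of Toll, Nod and NF-kappaB sensing 23 were tested and edgeR called 0. At an unadjusted p below 0.05, 4 were higher and 2 lower, and DESeq2 called 1 in each direction. The adaptor gene Myd88 (0.18 ± 0.10 log2 SE, edgeR adjusted p = 0.317) and Nfkb1 (0.01 ± 0.10, adjusted p = 0.963) did not pass. Lbp, which the likeness to Reg3b also named, gave -1.42 ± 0.38 (edgeR adjusted p = 0.0523). Of 16 acute phase genes 4 were tested and edgeR called 0, with 1 lower at an unadjusted p below 0.05 and 0 called by DESeq2. Of 10 genes of the type 2 cytokine axis that regulates Retnlb 5 were tested and edgeR called 0, with 1 higher at an unadjusted p below 0.05 and 0 called by DESeq2, and Il13 had no counts in any library.

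Among 18 other epithelial defence genes, 12 were tested and Pigr alone fell. Zg16, a lectin of goblet cells, was at 5639, 5762 and 5395 CPM in Myc-deleted libraries 1 to 3, against 5810, 5822 and 5324 CPM in control libraries 1 to 3 (edgeR adjusted p = 0.955). The groups overlapped. Lypd8, which keeps flagellated bacteria off the colonic epithelium, was at 3443, 2793 and 6575 CPM in the Myc-deleted libraries and 3232, 3496 and 3618 CPM in the controls (log2 fold change 0.31 ± 0.26 SE, edgeR adjusted p = 0.543). The value was -0.15 when Myc-deleted library 3 was left out, the library that was also highest for Reg3b and Reg3g among the Myc-deleted. Lyz1, the Paneth cell lysozyme, averaged 729 ± 161 CPM in the Myc-deleted mice and 589 ± 175 CPM in the controls (SD, n = 3 each; 0.31 ± 0.22 log2 SE, edgeR adjusted p = 0.463, and 0.08 without control library 3).

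Of 9 genes of growth signalling, with the Reg receptor candidate Extl3, the EGF family and Il6st, 3 rose and 1 fell. The ligand gene Areg was at 33.9, 37.2 and 59.0 CPM in Myc-deleted libraries 1 to 3, against 14.8, 9.51 and 14.3 CPM in control libraries 1 to 3 (log2 fold change 1.76 ± 0.23 SE, edgeR adjusted p = 0.00204). Btc, another ligand (1.73 ± 0.21, adjusted p = 0.00156), and Ereg (0.66 ± 0.16, adjusted p = 0.0357) also rose by edgeR, and the receptor gene Erbb3 fell (-0.51 ± 0.11, adjusted p = 0.0184). Ereg lost its call without Myc-deleted library 2 or 3 or control library 2 or 3 (adjusted p up to 0.157), and Erbb3 without Myc-deleted library 2 or any 1 control library (up to 0.0654). Of 10 genes of retinoid handling and HDL, which serum amyloid A shares, 8 were tested and 2 rose: Apoa1, the main HDL apolipoprotein (0.48 ± 0.12, edgeR adjusted p = 0.0386), and Rbp2, the enterocyte retinol carrier (0.70 ± 0.19, adjusted p = 0.0499). Apoa1 kept its call in 1 of 6 runs that left out a library (adjusted p = 0.0461, without control library 3), and Rbp2 in 1 (0.00866, without Myc-deleted library 1).

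Markers of cell types in the tissue were read last. By edgeR 0 of 8 macrophage, 6 B and plasma cell, 7 Paneth cell and 7 goblet cell genes passed, with 0, 0, 3 and 1 at an unadjusted p below 0.05 and 0, 0, 0 and 1 called by DESeq2. The 7 Paneth cell genes summed to 1697 to 2712 CPM in the Myc-deleted mice, against 1194 to 2031 CPM in the controls. Of 7 enterocyte genes 2 rose, Apoa1 and Fabp2, and the sum of all 7 was 31479 to 37386 CPM in the Myc-deleted mice, against 21211 to 25784 CPM in the controls. The 8 neutrophil genes summed to 0.650 to 1.57 CPM in the Myc-deleted mice, against 0.306 to 0.692 CPM in the controls, with Mpo and Elane at 0. The part of these cells in the levels of the Reg and Saa genes was not tested.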

How the data were processed

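The 6 stranded mRNA libraries were made from mouse intestine, per the labels. The deposited values are RSEM expected counts per gene, not scaled between libraries; the submitters' processing notes name cutadapt, STAR, Picard, RSEM and the build mm10, with versions, annotation and strand setting not given in the sources used here. RSEM splits reads between near-identical genes, which bears on Saa1 and Saa2. Expected counts were rounded to whole numbers. The main test, run in R 4.3.3, was that of edgeR 4.0.16 (filterByExpr with minimum count 10 and total 15, TMM, quasi-likelihood F-test, Benjamini-Hochberg adjustment over 12720 genes, threshold 0.05), with DESeq2 1.42.0 as an alternative. Each SE was obtained by dividing the log2 fold change, without its sign, by the root of F. Log2 CPM used a prior count of 2. Intervals cover counting error only, and the limit for Il22 takes no error on the control counts. By Ensembl identifier 99.1% of genes matched GENCODE M21 (GRCm38). RefSeq promoter windows (GRCm38.p6) matched 7 of the 8 genes.

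The members and lists were chosen with earlier results of these data known. Genes named were the members, 18 fixed pathway genes, up to 4 called genes a list, and the 4 nearest profiles to Reg3b and to Saa1; exceptions are stated. Alternatives were RLE scaling, DESeq2, 2 other filters, the replicate number as a block and each library left out. The procedure was tested on simulated data. One marker list is not reported here.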

Additional observations from a re-analysis of the deposited data

How the results depend on the processing

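The 5 tested members kept their sign in every alternative, with log2 fold changes over left-out libraries of -2.36 to -1.72 for Reg3b, -2.17 to -1.37 for Reg3g, -1.71 to -1.45 for Reg3a, -3.71 to -2.58 for Saa1 and 1.66 to 2.02 for Reg4. Between 3 and 5 members were called lower when a library was left out and 5 with no filter, since Saa2 then entered the test. As the members were chosen on this contrast, nothing is read from these calls. Over all genes 537 were higher and 474 lower; leaving out a library gave 229 to 503 higher and 233 to 447 lower, fewest without control library 2 (229 and 233), and 337 higher without Myc-deleted library 2 and 343 without control library 1.

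Among the lists, the stricter filter called 1 cytokine gene higher. Without a filter, 2 interleukin 22 targets were lower, 2 Toll and NF-kappaB genes higher and 1 lower, 1 other defence gene higher and 2 lower, and 2 growth genes lower. DESeq2 called 1 Toll and NF-kappaB gene higher and 1 lower, 2 other defence genes lower, 1 retinoid and HDL gene higher and 2 growth genes lower. RLE scaling called 1 retinoid and HDL gene higher. With a library left out, 0 to 1 cytokine genes, 0 to 1 receptor genes, 0 to 1 Toll and NF-kappaB genes, 0 to 1 other defence genes, 0 to 1 retinoid and HDL genes and 2 to 3 growth genes were higher, and 1 to 2 interleukin 22 targets, 0 to 1 Toll and NF-kappaB genes, 1 to 2 other defence genes and 0 to 2 growth genes were lower. Genes that did not pass changed sign over left-out libraries, with log2 fold changes of -0.18 to 0.041 for Il6st, -0.0020 to 0.13 for Stat3, -0.50 to 0.10 for Socs3, -0.073 to 0.068 for Nfkb1, -0.042 to 0.34 for Duox2, -0.15 to 0.53 for Lypd8 and -0.055 to 0.0079 for Zg16.

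With the replicate number as a block, 552 genes were higher and 428 lower, 1 Toll and NF-kappaB gene was higher and 1 lower, 2 other defence genes were lower and 1 retinoid and HDL gene was higher. Rbp2 lost its call under the block (edgeR adjusted p = 0.0558), with RLE scaling (0.0513) and in DESeq2 (0.0738). Deviations of same-numbered libraries correlated at 0.026, 0.052 and 0.019, and each library correlated best with its own number. These correlations are small and were not tested. The design gives no pairs, and the libraries were not treated as pairs. Depth limits Reg1, Retnlb and Saa2, which stayed near the floor of 3 counts in at least 1 group. Where a call changed, the cause was not tested.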
